A study of Culex quinquefasciatus and Culex pipiens molestus with 2 samples.

Results

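The 4 transcript models described here are CPIJ002458, CPIJ002459, CPIJ017381 and CPIJ017382, each of which the deposited tables describe as a putative piwi protein. They were taken by identifier from 16198 models listed in at least 1 of the tables, and they are 4 of the 8 models with a piwi description. They were chosen by their reads and RPKM in these same libraries, which earlier results had shown to differ in opposite directions. Their folds are therefore a description and carry no test. Polyadenylated RNA was sequenced from females of laboratory strains of Culex pipiens molestus and of Culex pipiens quinquefasciatus, with RNA of 30 females pooled into 1 library per taxon. The labels give no age, feeding state, body part, genotype or treatment for either strain. The molestus library held 9.79 M uniquely assigned reads and the quinquefasciatus library 10.2 M. In what follows, molestus and quinquefasciatus stand for these libraries. With 1 library per taxon there is no replicate check and no p-value. All intervals below are 95% intervals that cover counting error only, and reads copied by PCR are not independent molecules. The link from each table to its taxon rests on the table's abbreviation, so every direction does too.

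Piwi proteins are the germline branch of the Argonaute family. They bind small guide RNAs, called piRNAs, and use them to find and silence transposon transcripts, best known from the ovary and testis of Drosophila. In Aedes mosquitoes the family has more members than in Drosophila, several are also expressed outside the germline, and some take part in making piRNAs from viral RNA. Which Drosophila or Aedes protein each Culex model corresponds to is not given in the deposited tables, so the models keep their identifiers here. Levels are given in RPKM, the number of reads scaled by the model's length in kb and by the library's assigned reads in M.

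The model CPIJ002459 was the most abundant piwi model of both libraries. It had 12324 reads in molestus, a level of 488 RPKM (480 to 497), against 2947 reads and 112 RPKM (108 to 117) in quinquefasciatus. It stood above 98.5% of the listed models in molestus and above 95.1% in quinquefasciatus. Its level was 4.34-fold higher in molestus (4.17 to 4.52), a log2 fold of 2.12. In such pooled bulk RNA, more cells that express a gene and more RNA per cell cannot be told apart.

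Its neighbour by number, CPIJ002458, was scarce and went the other way. It had 106 reads in molestus, or 4.38 RPKM (3.59 to 5.30), against 352 reads and 14.0 RPKM (12.6 to 15.6) in quinquefasciatus. The fold was 0.313 (0.249 to 0.390), a log2 fold of -1.68. This model stood above 40.8% of the listed models in molestus, below the middle of that list, and above 63.4% in quinquefasciatus.

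The second pair of neighbouring numbers showed the same arrangement. CPIJ017381 had 4540 reads in molestus, or 171 RPKM (166 to 176), against 1551 reads and 56.1 RPKM (53.4 to 59.0) in quinquefasciatus. It was 3.04-fold higher in molestus (2.87 to 3.22), a log2 fold of 1.60. CPIJ017382 had 202 reads in molestus, or 8.57 RPKM (7.43 to 9.83), against 1065 reads and 43.5 RPKM (40.9 to 46.2) in quinquefasciatus. Its fold was 0.197 (0.169 to 0.229), a log2 fold of -2.34. CPIJ017382 stood above 49.6% of the listed models in molestus and above 86.1% in quinquefasciatus, against 96.0% and 89.7% for CPIJ017381. In each pair the more abundant model was thus the one higher in molestus, and the scarcer one was lower there. Counted on the log2(RPKM + 1) scale, 2 of the 4 models were at least 2-fold higher in molestus, where 22.8% of the 12789 models with at least 1 RPKM in a library were. The other 2 were at least 2-fold lower there, as were 18.0% of those models. The background depended on the scaling: 2914 models were higher and 2303 lower as deposited, 2055 and 3029 after rescaling by the median ratio, and 2305 and 2790 with trimmed mean of M-values (TMM) factors. Nothing is read from these counts, since the folds led to the choice of the models.

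**Figure D1:**
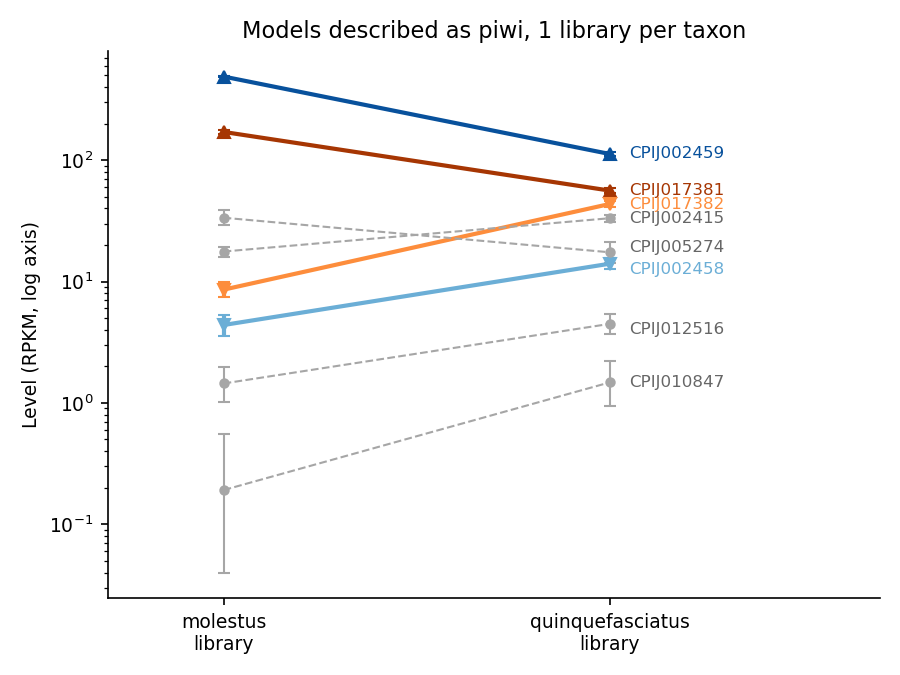
Level in RPKM on a log axis of the 8 models with a piwi description, molestus library left and quinquefasciatus library right, with exact Poisson intervals of the read count as bars. Coloured lines are the 4 models described here and grey broken lines the 4 further piwi models. CPIJ002459 and CPIJ017381 are higher on the left, at 488 and 171 RPKM against 112 and 56.1 RPKM on the right, and CPIJ002458 and CPIJ017382 are lower on the left, at 4.38 and 8.57 RPKM against 14.0 and 43.5 RPKM.

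The balance within each pair differed between the libraries. This was fixed in advance, because the models were chosen for their opposite folds, so only the size of the difference is described. Per kilobase, CPIJ002459 had 111 times the reads of CPIJ002458 in molestus (92.0 to 136) and 8.02 times in quinquefasciatus (7.18 to 8.98). CPIJ017381 had 19.9 times the reads of CPIJ017382 in molestus (17.3 to 23.0) and 1.29 times in quinquefasciatus (1.19 to 1.40). The pair of CPIJ017381 and CPIJ017382 was thus closer to even in quinquefasciatus. The scarcer model held 0.89% of the RPKM of its pair in molestus and 11.1% in quinquefasciatus for the pair of CPIJ002458 and CPIJ002459. For the pair of CPIJ017381 and CPIJ017382 these shares were 4.78% in molestus and 43.7% in quinquefasciatus.

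The within-pair ratio in molestus, divided by that in quinquefasciatus, does not depend on library size or model length. It was 13.9 (11.1 to 17.5) for the pair of CPIJ002459 over CPIJ002458 and 15.4 (13.1 to 18.2) for the pair of CPIJ017381 over CPIJ017382. These intervals overlap. The levels of the pairs as wholes moved by different amounts. The reads of CPIJ002458 and CPIJ002459 together were 3.91-fold higher in molestus (3.77 to 4.07), at 12430 against 3299 reads. Those of CPIJ017381 and CPIJ017382 together were 1.88-fold higher (1.79 to 1.98), at 4742 against 2616 reads.

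The same models can be set against each other across the pairs. Of the more abundant members of each pair, CPIJ002459 had 2.86 times the reads per kilobase of CPIJ017381 in molestus (2.76 to 2.96). In quinquefasciatus it had 2.0 times (1.88 to 2.13). Of the scarcer members of each pair, CPIJ017382 had 1.96 times the reads per kilobase of CPIJ002458 in molestus (1.54 to 2.50). In quinquefasciatus it had 3.10 times (2.75 to 3.51). The order of the 4 levels was the same in both libraries, with CPIJ002459 first, then CPIJ017381, CPIJ017382 and CPIJ002458.

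Summed over the 4 models, piwi reads made up 0.175% of the molestus reads (0.173 to 0.178) and 0.0582% of the quinquefasciatus reads (0.0567 to 0.0597). The summed reads were 17172 in molestus and 5915 in quinquefasciatus, 3.02-fold higher in molestus relative to library size (2.93 to 3.11). CPIJ002459 supplied 72.7% of the summed RPKM of the 4 models in molestus and 49.7% in quinquefasciatus. CPIJ017381 supplied similar shares, 25.4% in molestus and 24.8% in quinquefasciatus, and its own fold of 3.04 was close to that of the sum. CPIJ017382 supplied 1.28% in molestus and 19.2% in quinquefasciatus, and CPIJ002458 supplied 0.652% and 6.20% in the same order. The fold of the sum thus mainly reflects CPIJ002459 and CPIJ017381.

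**Figure D2:**
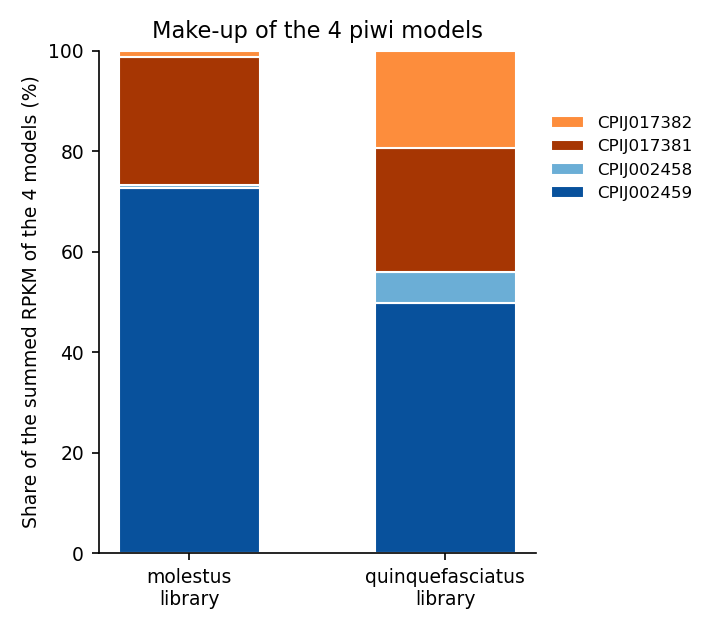
Share in percent of the summed RPKM of the 4 models that each model supplied, molestus library left and quinquefasciatus library right. The pale bands of CPIJ002458 and CPIJ017382 are thin in the molestus bar, at 0.652% and 1.28%, and reach 6.20% and 19.2% in the quinquefasciatus bar.

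The models with the nearest numbers lay on both sides of an equal level. Numbers are used here only as labels, since genome positions were not used. Below CPIJ002458, the RNA polymerase I subunit RPA2 (CPIJ002457), part of the enzyme that transcribes ribosomal RNA, was 1.26-fold higher in molestus (1.16 to 1.37), but at 0.987-fold when the libraries were scaled on reads outside the 100 top models of either. Models CPIJ002455 and CPIJ002456 had at most 15 reads in either library. CPIJ002455, a hypothetical protein, had 8 reads in molestus and 0 in quinquefasciatus.

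Above CPIJ002459, a malate dehydrogenase (CPIJ002460), an enzyme of central metabolism, was at 0.593-fold of the quinquefasciatus level (0.559 to 0.628). The ubiquitin ligase models CPIJ002461 and CPIJ002462, of a kind that tags proteins for destruction, were at 0.969-fold (0.835 to 1.12) and 1.26-fold (1.20 to 1.33), the second at 0.988-fold under that scaling. The log2(RPKM + 1) ratios of these 6 models thus ran from -0.75 to 1.81, and all but CPIJ002455 lay within 2-fold.

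Around the second pair, CPIJ017380 was listed in neither table, and the hypothetical proteins CPIJ017378 and CPIJ017379 were at 0.519-fold (0.114 to 1.94) and 0.616-fold (0.486 to 0.777). An alpha tubulin (CPIJ017383), a building block of microtubules, was next in number to CPIJ017382 and also lower in molestus, at 49.0 against 117 RPKM and 0.420-fold (0.385 to 0.458). The 2 following models were higher there, an RNA polymerase model (CPIJ017384) by 3.26-fold (1.97 to 5.62) and the mitochondrial DNA helicase twinkle (CPIJ017385) by 3.81-fold (3.12 to 4.70).

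**Figure D3:**
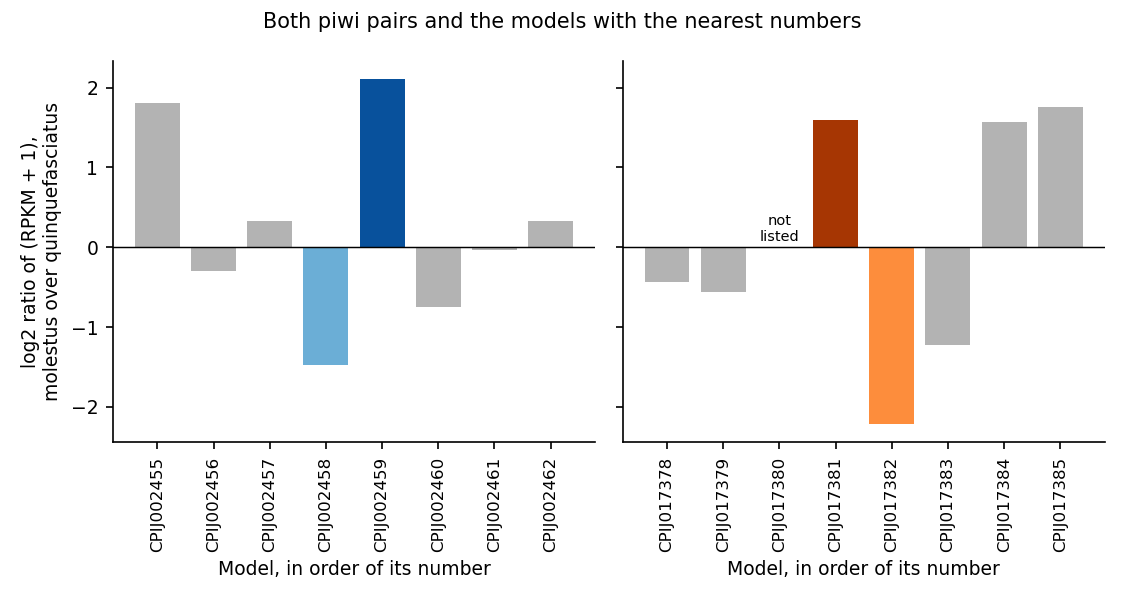
Log2 ratio of (RPKM + 1), molestus over quinquefasciatus, of both piwi pairs (coloured bars) and of the 3 models with the nearest numbers on each side (grey bars), in order of number. The neighbours lie on both sides of 0, between -0.75 and 1.81 beside the first pair and between -1.23 and 1.76 beside the second. CPIJ017380 was not listed and has no bar.

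Such splits were also counted over all consecutive numbers with the same description, the piwi pairs included. This count was added after the data had been seen. There were 466 pairs of consecutive numbers whose compared models carried the same description, hypothetical proteins left out. Of these, 12 pairs (2.58%) went at least 2-fold in opposite directions. Both piwi pairs are among those 12, which was fixed in advance because their models were chosen for their opposite folds. Nothing is read from this share. A further 102 pairs went at least 2-fold in the same direction. The models of the piwi pairs lay 3.59 and 3.80 apart on the log2 scale. The 12 pairs ranged from 2.36, for a pair named surfeit locus protein (CPIJ011515 and CPIJ011516), to 5.58, for a pair of glutathione S-transferases (CPIJ002679 and CPIJ002680).

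All 4 models had lengths that are multiples of 3, as 89.1% of the listed models did, so the lengths are read as coding lengths without untranslated regions. CPIJ002458 was 2472 bases long (824 codons), CPIJ002459 2580 bases (860 codons), CPIJ017381 2718 bases (906 codons) and CPIJ017382 2409 bases (803 codons). Within each pair the scarcer model was the shorter one. Sequences were not used here, so how alike the models are was not measured, and uniquely assigned reads undercount any stretch that near-identical copies share.

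The more abundant model of each pair was covered by reads almost end to end and the scarcer one was not. CPIJ002459 was covered over 99.7% of its length in molestus and 99.1% in quinquefasciatus, and CPIJ017381 over 99.6% and 99.0% in the same order. CPIJ002458 was covered over 79.9% in molestus and 94.1% in quinquefasciatus, at a mean of 3.86 and 12.8 reads per base. CPIJ017382 was covered over 76.2% in molestus and 91.7% in quinquefasciatus, at a mean of 7.55 and 39.8 reads per base.

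CPIJ017382 was thus covered less than CPIJ002458 in both libraries at a higher read density. Of the 4 models it had the most uncovered bases, 573 in molestus and 199 in quinquefasciatus. In the quinquefasciatus library, 668 other models of at least 1000 bases had a read density within 1.25-fold of that of CPIJ017382. Their median covered share was 97.5% (quartiles 93.9% to 99.1%), and 16.9% of them were covered less than CPIJ017382. In the molestus library the median of 557 such models was 85.8% (76.2% to 91.9%), and 25.1% were covered less. For CPIJ002458 the median of models of like density was 75.6% in molestus and 93.3% in quinquefasciatus, against its own 79.9% and 94.1%. For CPIJ002459 that median was 99.2% and 98.7% in the same order, and for CPIJ017381 98.9% and 97.8%. Only CPIJ017382 was covered less than the median of its models of like density. Which bases were uncovered, and whether they were the same in both libraries, cannot be read from the tables.

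**Figure D4:**
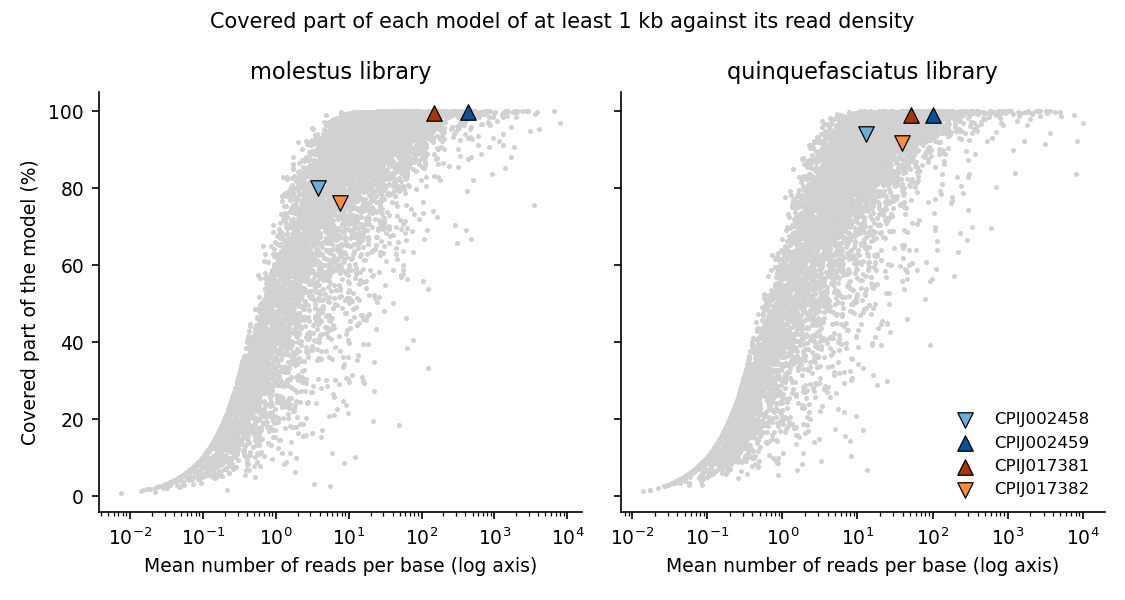
Covered percent of each model of at least 1 kb against its mean number of reads per base on a log axis, molestus library left and quinquefasciatus library right. Grey points are all such models and coloured triangles the 4 piwi models. CPIJ017382 is at 91.7% in quinquefasciatus, where 16.9% of the models of like density were covered less, while CPIJ002459 and CPIJ017381 sit near 100% in both libraries.

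The 4 further piwi models were less abundant in sum. They had 680 reads in molestus and 1123 in quinquefasciatus, a fold of 0.629 (0.571 to 0.692). Their summed RPKM, which weights short models more, was 52.8 in molestus and 56.6 in quinquefasciatus. CPIJ002415, 2598 bases long, had 449 reads and 17.7 RPKM in molestus against 877 reads and 33.2 RPKM in quinquefasciatus, 0.532-fold (0.474 to 0.597). CPIJ012516 (2616 bases) was at 1.45 against 4.47 RPKM, 0.323-fold (0.217 to 0.471). CPIJ010847 (1602 bases) had 3 reads in molestus and 24 in quinquefasciatus, 0.130-fold (0.0250 to 0.428). Only CPIJ005274, a short model of 582 bases, was higher in molestus, at 33.5 against 17.4 RPKM and 1.93-fold (1.51 to 2.47).

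Over all 8 piwi models the summed reads were 2.63-fold higher in molestus (2.56 to 2.71). Ordered by level in molestus, CPIJ002459 came first, followed by CPIJ017381, CPIJ005274, CPIJ002415, CPIJ017382, CPIJ002458, CPIJ012516 and CPIJ010847. Each differed from the next by more than counting error. In the quinquefasciatus library CPIJ017382 was in the third place and CPIJ005274 in the fifth. There CPIJ005274 and CPIJ002458, in the fifth and the sixth place, did not differ beyond counting error, with a ratio of 1.24 (0.988 to 1.55).

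The patterns of the piRNA pathway list name piwi proteins and proteins known to act with or beside them. What these Culex models do was not tested. The list excludes the 4 models and was formed by text patterns on the descriptions. Of its 11 models, the 4 further piwi models included, 5 were at least 2-fold higher in molestus and 2 were at least 2-fold lower, against 22.8% and 18.0% of all compared models. Rescaled by the median ratio the counts were 3 and 3, and by TMM 4 and 3. The list's median log2 ratio was 0.91, against 0.18 over all 12789 compared models. By the median ratio these medians were 0.62 and -0.09, and by TMM 0.71 and -0.01. Both lower models are piwi models, CPIJ010847 and CPIJ012516.

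Tudor proteins bind methylated piwi proteins in the Drosophila germline, and the maternal tudor model (CPIJ005824) was at 116 RPKM in molestus against 46.5 RPKM in quinquefasciatus, 2.49-fold (2.38 to 2.61). Another tudor domain model (CPIJ013231) was at 31.2 against 28.4 RPKM, with an interval of the fold that held 1 (0.975 to 1.24), and lower in molestus under each of the other scalings (0.860-fold to 0.952-fold). Capsuleen (CPIJ001916), the arginine methyltransferase that places those marks in Drosophila, was 1.66-fold higher (1.50 to 1.84), and its partner valois (CPIJ010038) 2.21-fold higher (1.86 to 2.63). The maelstrom models CPIJ001566 and CPIJ001731, named for a protein needed for transposon silencing in Drosophila, had folds of 2.75 (2.44 to 3.09) and 3.15 (2.74 to 3.64). The RNA helicase WM6 (CPIJ014241), which serves RNA export in general and piRNA precursors in Drosophila, was the most abundant of the list, at 904 against 369 RPKM and 2.45-fold (2.37 to 2.54).

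The other branches of the Argonaute family, which use siRNAs and miRNAs, also held models of opposite direction. Argonaute-2 (CPIJ009898), the slicer of the siRNA pathway in Drosophila, was at 105 RPKM in molestus against 44.3 RPKM in quinquefasciatus, 2.37-fold (2.22 to 2.53). There were 2 models under the older Argonaute name, translation initiation factor 2C. CPIJ006138 was 4.55-fold higher in molestus (4.17 to 4.97), at 96.7 against 21.2 RPKM. CPIJ014791 was at 37.2 against 252 RPKM, 0.147-fold (0.138 to 0.158), a lower fold than that of any of the 4 piwi models described here.

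Of the 8 compared models of the siRNA and miRNA list, 4 were at least 2-fold higher in molestus and 1 was at least 2-fold lower, where 22.8% and 18.0% of all compared models were. The list's median log2 ratio was 1.04, against 0.18 over all compared models. By the median ratio these medians were 0.76 and -0.09, with 3 models higher and 1 lower. By TMM they were 0.84 and -0.01, with 4 models higher and 1 lower. Exportin-5 (CPIJ010675), which carries miRNA precursors out of the nucleus in mammals, was 2.54-fold higher (2.37 to 2.72), and a TAR RNA binding protein (CPIJ004832), of a family that assists Dicer, 4.37-fold higher (3.63 to 5.28). The Dicer models, named for the enzyme that cuts small RNA precursors, differed less, with CPIJ003169 at 1.93-fold (1.72 to 2.17) and CPIJ010534 at 1.28-fold (1.17 to 1.40), or 0.999-fold without the most abundant models. A staphylococcal nuclease domain protein (CPIJ006932) was at 256 RPKM in molestus and 257 RPKM in quinquefasciatus.

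Piwi proteins are known to act in the germline and ovary. Models were listed beside them by text patterns on the descriptions that refer to these tissues, and no cell type is named from the list. Of 14 compared models of that list, 9 were at least 2-fold higher in molestus, 0 were at least 2-fold lower and 5 lay within 2-fold, against 22.8% higher and 18.0% lower over all compared models. The median log2 ratio was 1.44, with a range of -0.50 to 3.79, against 0.18 over all compared models. By the median ratio these medians were 1.16 and -0.09, and by TMM 1.24 and -0.01, with 9 models higher and 0 lower under both. The summed level of the compared models of the list was 930 RPKM in molestus and 460 RPKM in quinquefasciatus. None of them was at 0 reads in either library. The list shares both maelstrom models with the piRNA pathway list, and no listed description names vasa or oskar, which mark germ cells in Drosophila. Bicaudal C (CPIJ005456), which binds RNA in the Drosophila egg chamber, was at 152 against 10.1 RPKM. Bicaudal D (CPIJ012635), which links RNA cargo to a motor, was at 94.7 against 18.6 RPKM. The models furthest the other way, a ferritin named for an oocyte isoform (CPIJ008182) and an oocyte zinc finger model (CPIJ005819), were at 0.703-fold (0.651 to 0.759) and 0.877-fold (0.759 to 1.01). CPIJ002459 and CPIJ017381 had the direction of the list's median, and CPIJ002458 and CPIJ017382 had the opposite one. The part of the germline in the piwi values was not tested.

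**Figure D5:**
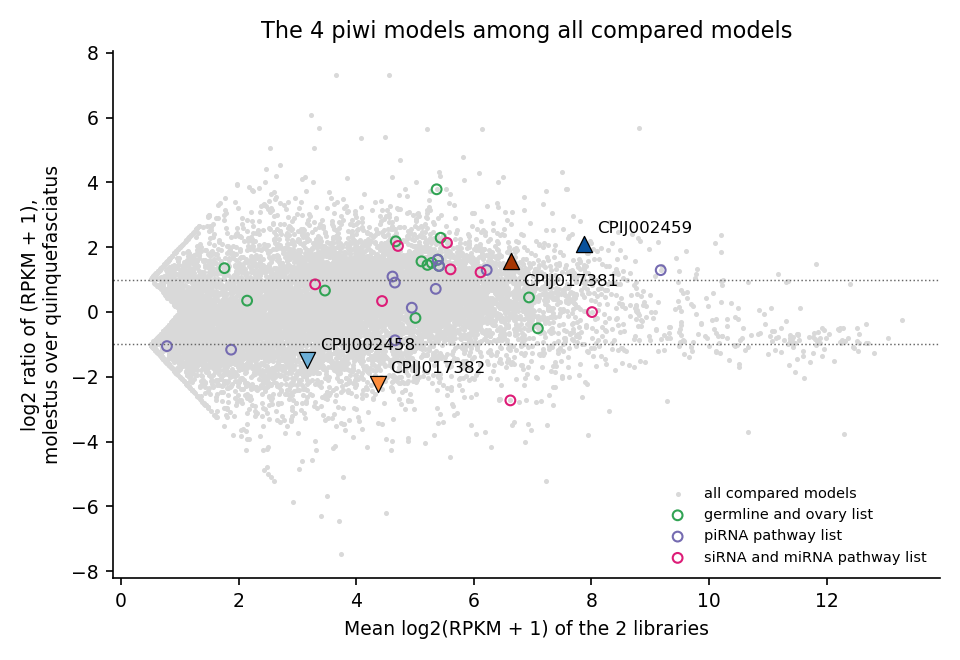
Log2 ratio of (RPKM + 1), molestus over quinquefasciatus, against the mean log2(RPKM + 1) of the libraries for all 12789 compared models (grey), the germline and ovary, piRNA pathway and siRNA and miRNA pathway lists (open circles) and the 4 piwi models (triangles), with 2-fold in either direction dotted. CPIJ002459 and CPIJ017381 lie above the upper line, as many of the open circles do, and CPIJ002458 and CPIJ017382 below the lower line at lower mean levels.

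Transposable elements, the transcripts that piRNAs target, were thinly represented among these protein-coding models. Of 9 listed models 5 were compared, of which 0 were at least 2-fold higher in molestus and 2 were at least 2-fold lower, where 22.8% and 18.0% of all compared models were. The median log2 ratio was -0.74, the same with the model at 0 reads set to a floor of 3 reads. A model derived from a piggyBac element (CPIJ015140) had 28 reads in molestus and 279 in quinquefasciatus, 0.104-fold (0.0680 to 0.154). A reverse transcriptase model (CPIJ000788) was at 5.59 against 10.0 RPKM, 0.558-fold (0.450 to 0.689). The other of the 2 models at least 2-fold lower as deposited, named outside the rule, is a retrovirus receptor (CPIJ005372). It had 0 reads in molestus and 45 in quinquefasciatus. The text pattern took this model in, and it is no transposon by its description. Another compared model with the same description, CPIJ006693, likewise named outside the rule, was at 0.747-fold (0.614 to 0.908). Without the retrovirus receptors, a setting chosen after seeing the data, 1 model was lower and the median log2 ratio was still -0.74. Below the minimum for comparison, a pogo element model (CPIJ017132), also named outside the rule, went the other way, with 13 reads in molestus and 1 in quinquefasciatus, a ratio of 13.5 (2.03 to 574).

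The described models with the most similar levels were found by distance in log2(RPKM + 1) over the 2 libraries, which are only 2 values per model. Nearest to CPIJ002459 were a serine-arginine protein (CPIJ008634), at 502 against 117 RPKM, and a SPRY domain-containing SOCS box protein (CPIJ005988), at 533 against 117 RPKM. Nearest to CPIJ017381 were a dwarfin sma-2 model (CPIJ000420), at 172 against 55.4 RPKM, and importin-4 (CPIJ002334), at 168 against 54.5 RPKM. Nearest to CPIJ002458 were a maltase 1 (CPIJ005208), at 4.33 against 14.3 RPKM, and a cadherin (CPIJ018227), at 4.24 against 14.0 RPKM. Nearest to CPIJ017382 were a leucine-rich repeat neuronal protein (CPIJ012836), at 8.81 against 43.8 RPKM, and fibulin-1 (CPIJ017419), at 9.04 against 43.3 RPKM. The distances were between 0.022 and 0.136.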

How the data were processed

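The authors deposited, per the file headers, the count of uniquely assigned reads per transcript model, the model's length, its RPKM and the percent of its length covered by reads. The listed counts summed to the total in each header, and recomputed RPKM differed from the deposited values by a relative 5e-08 at most. The aligner, counting tool, gene model release and filters were not given in the sources used for this work. Both libraries were counted on the same models. Whether sequence differences between the taxa changed read assignment or coverage was not tested. The libraries were non-directional, per the labels' protocols, so reads of overlapping antisense genes cannot be told apart. A model listed in only 1 table was taken as 0 reads in the other.

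Models with 1 read covered 90 bases, taken as the read length. Levels have exact Poisson intervals, and folds and within-library ratios exact conditional binomial intervals (Clopper-Pearson). The within-pair comparison used the conditional odds ratio. Models were compared on log2(RPKM + 1) at a minimum of 1 RPKM in a library. For the median of a list with a model at 0 reads, a floor of 3 reads was also tried, which for 1 kb of model is 0.307 RPKM in molestus and 0.295 RPKM in quinquefasciatus. No count model was fitted, since there is 1 library per taxon.

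The 4 models and the text-pattern lists were chosen with earlier results of these data known. Named were the 4 models, all models of the 2 small RNA lists with at least 1 RPKM, up to 2 per direction of the other lists at a minimum of 10 RPKM and 50 reads, the 3 nearest numbers on each side, and the 2 described models nearest in level. The reference table of gene names matched 0 of the 4 identifiers, and protein sequences were not used here. Alternatives were other scalings, pseudocounts, filters and length corrections.

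On simulated counts for the molestus over quinquefasciatus comparison, all 100 models altered 4-fold in each direction were counted at the 2-fold threshold, as were 0.572% of 12245 unaltered compared models. Of 13195 simulated fold intervals, 95.9% held the true fold. Spread between libraries of the same taxon cannot be estimated from these data, so these rates do not cover it. They are therefore not error rates for the observed counts of higher and lower models. Whether they hold for scarce models such as CPIJ002458 was not tested separately. Python 3.11.15, numpy 2.4.6, pandas 2.3.3, scipy 1.17.1, matplotlib 3.10.9, and edgeR 4.0.16 in R 4.3.3 (TMM factors only) were used.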

Additional observations from a re-analysis of the deposited data

How the results depend on the processing

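Scaling shifted every log2 fold by -0.30 (median ratio), -0.21 (TMM) or -0.36 (same sum without the 100 most abundant models), and no piwi model or within-pair ratio changed direction under any alternative run. The log2 fold of CPIJ002459 was 1.82, 1.91 and 1.76 under these scalings, that of CPIJ017381 1.31, 1.40 and 1.25, and that of the summed reads of the 4 models 1.30, 1.39 and 1.24. That of CPIJ017382 was -2.64 by the median ratio and -2.70 without the most abundant models, where that of CPIJ002458 was -2.03. A pseudocount of 10 RPKM, which shrinks low models most, gave -0.74 for CPIJ002458, 2.03 for CPIJ002459, 1.45 for CPIJ017381 and -1.53 for CPIJ017382. Reads per covered base gave -2.08 for CPIJ017382. Per covered length, the within-pair log2 ratios in the molestus library were 6.48 (CPIJ002459 over CPIJ002458) and 3.93 (CPIJ017381 over CPIJ017382), against 6.80 and 4.32 as reported. Without length, the quinquefasciatus ratio of the second pair was 0.54 in place of 0.37.

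The 2914 higher and 2303 lower models became 1326 and 618 at a pseudocount of 10 and 615 and 508 at 4-fold, and 1139 models were lower at a minimum of 10 RPKM. Rescaling turned the balance, to 2055 higher and 3029 lower by the median ratio and 2305 and 2790 by TMM. The median log2 ratio of all models was 0.08 at a pseudocount of 10, 0.04 without a filter, 0.47 at a minimum of 10 RPKM, and turned to -0.09 by the median ratio and -0.01 by TMM. In the piRNA pathway list, 5 higher and 2 lower models became 3 and 3 by the median ratio and 4 and 3 by TMM, 0 were higher at 4-fold, and 0 were lower at a pseudocount of 10, at a minimum of 10 RPKM, at 4-fold and without the further piwi models (chosen after seeing the data). At 4-fold 2 models of the siRNA and miRNA list and 3 of the germline and ovary list were higher. The transposable element list had 1 lower model at a pseudocount of 10 (median -0.36), at a minimum of 10 RPKM and without the retrovirus receptors (chosen after seeing the data). The other 108 of 150 recomputed values stayed within their counting interval or 1.5-fold of the count. No paired analysis was possible because each taxon has 1 library. Of the 8 piwi models, the 3 molestus reads of CPIJ010847 and the 37 of CPIJ012516 give the widest fold intervals, and of the 4 models described the 106 of CPIJ002458 do.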
